A study of Mus musculus with 10 samples.

Results

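The genes described here encode the enzymes that write and erase DNA methylation and the acetyl and methyl marks of histones. The set holds 51 mouse genes of 34932 in the deposited tables. They were taken by name from a list of enzymes drawn up with earlier results of these data known. It comprises 3 DNA methyltransferases, 3 TET enzymes, 10 histone acetyltransferases, 14 histone deacetylases, 13 histone methyltransferases and 8 histone demethylases. Eed and Suz12 are counted with the methyltransferases as core subunits of PRC2, although neither carries the catalytic site.

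The RNA came from Pmel CD8+ T cells taken out of tumors, whose transgenic T cell receptor recognizes the melanoma antigen gp100. Spleen cells of Pmel mice (Thy1.2/Thy1.2) were stimulated with gp100 peptide plus IL-2, transduced with MSCV-IRES-Thy1.1 (MIT) retrovirus, which marks cells with Thy1.1, and grown on in IL-2, IL-7 and IL-15. The MIT-BATF vector carried the mouse BATF reading frame, BATF being an AP-1 family transcription factor, and the MIT-Empty vector carried no insert. Thy1.1+ cells were injected into Ly5.1 mice bearing B16-F10 melanoma, and 7 days later 2000 live Thy1.1+ cells were sorted per mouse for SMART-Seq2 libraries, 5 for each group. No depletion of the recipients' own lymphocytes is described for this transfer. The study used young adult mice of both sexes, and the labels give neither age nor sex per sample. By design, BATF is expressed from the retroviral vector in cells activated before transfer, and the Batf RNA counted in these libraries is given below.

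DNA methyltransferases place methyl groups on cytosines, with Dnmt1 copying the pattern after replication and Dnmt3a and Dnmt3b setting it anew, while TET enzymes oxidize methylcytosine toward its removal. Acetyltransferases and deacetylases add and take off acetyl groups on histone lysines, and histone methyltransferases and demethylases do the same for methyl groups, with effects on transcription that depend on the lysine. In CD8+ T cells such enzymes are known for their part in effector, memory and exhausted differentiation, Dnmt3a and Ezh2 among the best studied.

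Several properties of the libraries bear on every value that follows. Batf itself ran from 12.4 to 26.5 CPM (counts scaled to a common library size after TMM adjustment) where the label was MIT-BATF, against 13.5 to 50.8 CPM where it was MIT-Empty (log2 fold change -0.41, adjusted p = 0.52, edgeR). Its level thus did not set the groups apart in the direction of the labels, and whether vector transcripts could be counted as Batf was not tested. Directions below are those of the libraries so labelled. The counts of replicates 4 and 5 of each group lay within those of replicates 2 and 3 of the same group. In these 4 pairs the smaller library exceeded the larger in at most 0.661% of genes with at least 5 counts, against at least 3.54% in the other pairs of the 45. Genes called different by edgeR are therefore given for the counts as deposited and again with shared reads counted once. For the latter, the contained library was subtracted from the one that holds it. Other values are from the deposited counts unless stated otherwise. Library depth was 10702740 to 34102086 gene counts for MIT-BATF and 6534472 to 21355657 for MIT-Empty, and mitochondrial genes took 33.2% of MIT-BATF replicate 1, against 11.5% to 23.1% in the other 9 libraries. None of the 8 CD8 T cell markers was called different, with Cd8a at 320 to 462 CPM for MIT-BATF and 312 to 518 CPM for MIT-Empty, while Cd4 was at most 0.351 CPM in MIT-BATF, against 0.97 CPM in MIT-Empty. The 8 melanoma markers summed to 17.4 to 30.6 CPM in MIT-BATF and to 41.7 to 1783 CPM in MIT-Empty, with 6 of the 6 tested lower in MIT-BATF, led by Tyrp1 at up to 753 CPM in MIT-Empty replicate 4, and 2 of 6 (Tyrp1 and Mlana) with shared reads counted once. In such sorted bulk samples, fewer cells of a type and less RNA per cell cannot be told apart. Of the macrophage and monocyte markers 4 of 11 tested were lower in MIT-BATF (Lyz2, C1qc, Apoe and Ms4a7), as were 2 of 3 fibroblast and endothelial markers (Dcn and Sparc), while counting shared reads once left Apoe and Dcn called. The B cell marker Cd79b and the NK list gene Kit were higher in the deposited counts and not called with shared reads counted once (adjusted p = 0.13 and 0.12, edgeR). None of the 4 erythroid or 4 sex-linked genes tested was called in the deposited counts. The erythroid list was uneven, summing to 0 to 489 CPM in MIT-BATF and to 0 to 72.9 CPM in MIT-Empty. Hba-a2 was at 238 and 61.1 CPM in MIT-BATF replicates 2 and 3, and at most 0.294 CPM in the rest of that group. With shared reads counted once, no erythroid gene was tested.

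Most of the enzyme genes were transcribed at moderate or low levels, and each class was led by a few members. Mean TPM, a level scaled to transcript length and library total, is given here over all 10 libraries. Hat1, which acetylates newly made histone H4 before it is built into chromatin, had the highest level of the set at 47.8 TPM. It was followed by the deacetylase Hdac1 at 41.5 TPM, by Eed at 33.5 TPM and by Ezh2, the catalytic subunit of PRC2, at 27.2 TPM. Among the other classes Dnmt1 led the DNA methyltransferases at 18.6 TPM, Kdm2b the demethylases at 17.9 TPM and Tet2 the TET enzymes at 7.41 TPM. At the low end Dnmt3b was at 0.383 TPM, Kat6b at 0.395 TPM and Kdm4a at 0.293 TPM. Hdac9 and Hdac11 were too low to be tested, with at most 44.7 and 3.00 estimated counts in any library. Among the leading members of the classes, Hat1 alone had groups that did not overlap in TPM, at 36.8 ± 12.2 TPM for MIT-BATF against 58.7 ± 4.50 TPM for MIT-Empty (SD, n = 5 each).

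**Figure D1:**
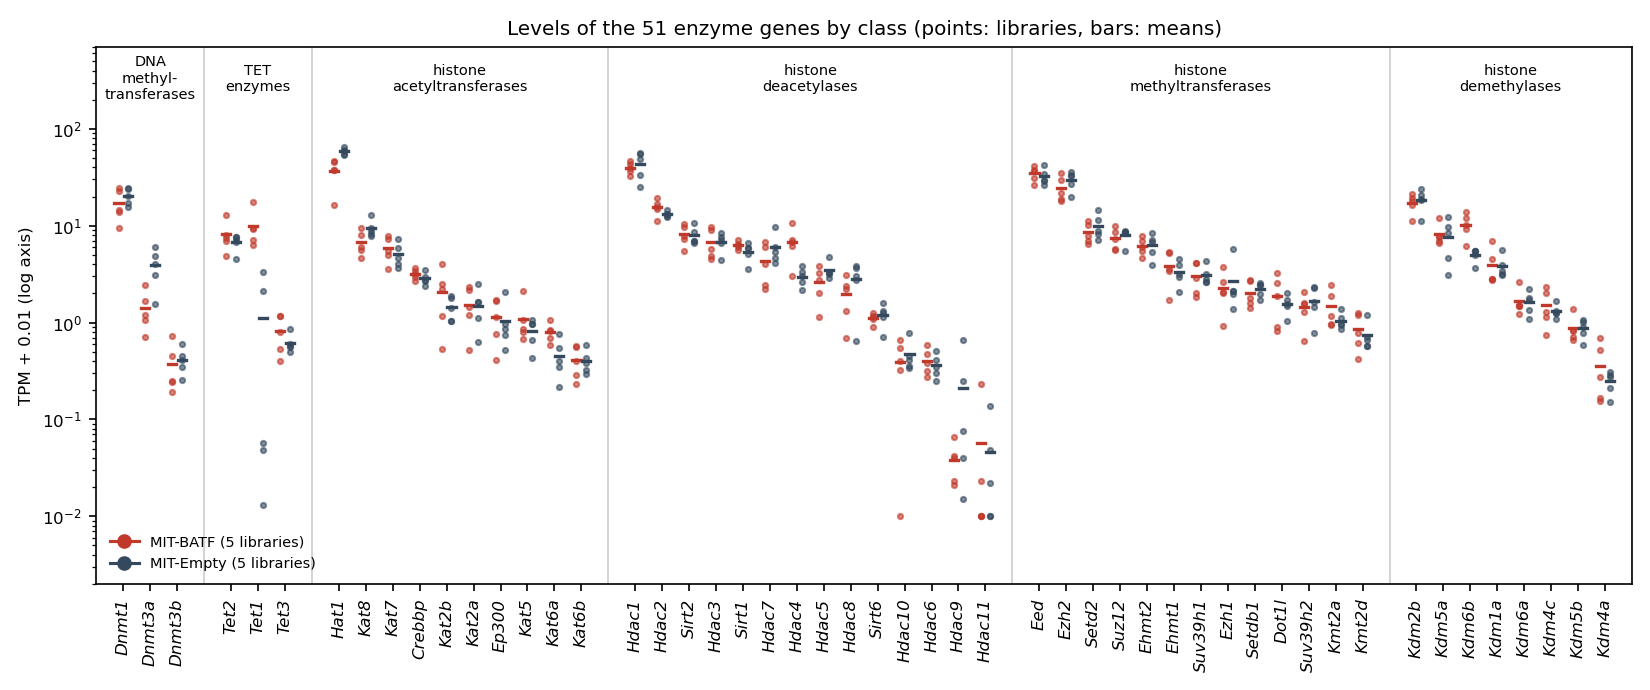
Level of each of the 51 genes in TPM plus 0.01 on a log axis, ordered within each class, with 1 point per library and a bar at the group mean (MIT-BATF left, MIT-Empty right, 5 libraries each). Hat1 and Hdac1 stand highest at means of 47.8 and 41.5 TPM, and Hdac9 and Hdac11 lie lowest.

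The gene level conceals which transcript models the reads were assigned to. Over the 49 tested members the median share of counts in models annotated as protein-coding was 91.1%, and 26 members were above 90%. In 11 members it was below 50%. For Dnmt1 73.1% of all counts went to Dnmt1-204, a model of 1252 bases with a retained intron, and for Hdac6 the retained-intron model Hdac6-204 held 98.2%. Hdac7 and Suv39h2, which trimethylates histone H3 in heterochromatin, likewise had 86.4% of their counts in a retained-intron model and 87.2% in a model marked for nonsense-mediated decay. For Hat1 and Kdm6b, by contrast, single coding models held 97.9% and 99.8%. Salmon's division of reads among overlapping models is an estimate, and the fold changes below are for gene sums unless a model is named.

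Between MIT-BATF and MIT-Empty cells, 4 of the 49 tested enzyme genes passed the test, the quasi-likelihood test of edgeR with p-values adjusted by Benjamini-Hochberg across 11781 genes and a threshold of 0.05. Hdac4, Kdm6b and Tet1 were higher and Hat1 was lower in MIT-BATF. Of all genes tested 4.58% were called, 2.16% higher and 2.43% lower, so 4 of 49 members stand against 540 of 11781 genes. At an unadjusted p under 0.05 the members numbered 8 (16.3%), against 18.1% of all genes tested. With shared reads counted once, the same test called 1.26% of 11129 genes, 0.575% higher and 0.683% lower, and 1 of the 49 members, Hdac4. The groups did not overlap in CPM for 4 members in the deposited counts (Hdac4, Kdm6b, Tet1 and Hat1), where 6.45% of all genes tested had no overlap, and for 2 members with shared reads counted once (Hdac4 and Tet1), where the background was 3.19%. The choice of fit altered which enzymes passed. DESeq2 called 6 members (adding Kat6a and Dnmt3a), where it called 8.0% of all genes with an adjusted p. For limma voom with quality weights it was 8 members (adding Kat6a, Kmt2a, Dnmt3a and Kat8), against 11.3% of all genes tested. Correction for transcript length gave 4, of which 2 were higher (Hdac4, Kdm6b) and 2 lower (Hat1, Dnmt3a), against 3.91% of all genes tested. Without the contained libraries edgeR called 0 members (7 at an unadjusted p under 0.05), and without the containing ones 0 members (5 at an unadjusted p under 0.05), each from 6 libraries. Few genes of any kind were called in these fits, as given in the last section, so 0 members says nothing particular about the enzymes. The share of all genes at an unadjusted p is not given for them.

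By class, the fitted log2 fold changes are given as medians, beside a median of 0.0065 over all genes tested. The median was -0.35 for the 3 DNA methyltransferases and 0.26 for the 3 TET enzymes, 0.09 for acetyltransferases, -0.14 for deacetylases, -0.13 for histone methyltransferases and 0.13 for demethylases. With shared reads counted once, these medians were -0.27, 0.31, 0.13, 0.0048, -0.16 and 0.15 in the same order of classes. The DNA methyltransferases all had fitted values below 0 and the TET enzymes all above 0, and of these 6 genes Tet1 alone passed the test on deposited counts, with none of the 6 past it when shared reads were counted once. Across all 49 members 25 values were above 0 and 24 below, and 41 of 49 (83.7%) lay within 0.5 of 0, against 75.3% of all genes tested. All 13 histone methyltransferases lay within 0.5 of 0 and none passed the threshold, where 4.58% of all genes tested did. This class also had the lowest median standard error, at 0.19, against 0.21 over the 49 members and 0.25 over all genes tested. How far such precision accounts for values near 0 was not tested.

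**Figure D2:**
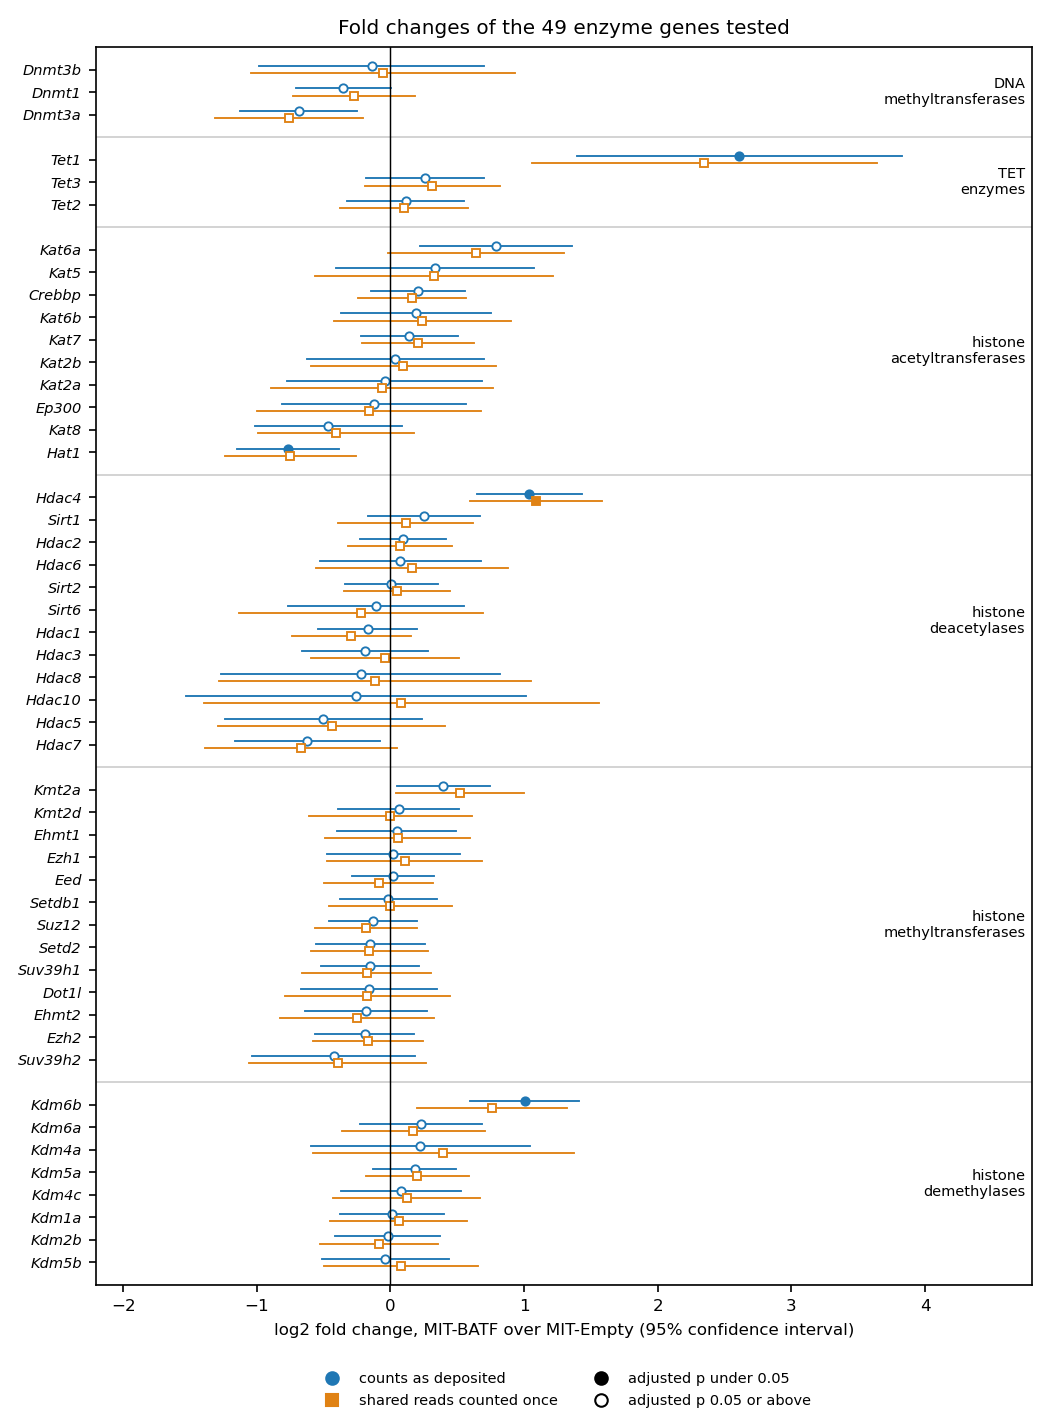
Fitted log2 fold change of MIT-BATF over MIT-Empty with its 95% confidence interval for the 49 tested genes, by class, from deposited counts (circles) and with shared reads counted once (squares), filled where the adjusted p from edgeR was under 0.05. Hdac4 is filled in both fits, at 1.04 and 1.09, while Kdm6b, Tet1 and Hat1 are filled for the deposited counts only.

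Among the deacetylases, Hdac4 was higher in MIT-BATF under both ways of counting. Hdac4 (ENSMUSG00000026313.16, chromosome 1 of GRCm38, 91928779 to 92195699, minus strand) encodes a class IIa deacetylase that shuttles between nucleus and cytoplasm and restrains MEF2 factors. Its level was 14.4, 16.3, 17.4, 13.1 and 12.1 CPM in MIT-BATF replicates 1 to 5, against 8.94, 7.10, 7.21, 6.63 and 5.89 CPM in MIT-Empty. Every MIT-BATF library lay above every MIT-Empty library. The log2 fold change was 1.04 ± 0.18 (SE; 95% confidence interval 0.64 to 1.43; adjusted p = 0.0049, edgeR), from means of 14.7 ± 2.19 CPM for MIT-BATF and 7.15 ± 1.13 CPM for MIT-Empty (SD, n = 5 each). On the TPM scale, where the length of the assigned model counts, the groups overlapped, at 6.74 ± 2.71 TPM for MIT-BATF and 2.98 ± 0.63 TPM for MIT-Empty. Counting shared reads once, the lowest MIT-BATF library held 13.0 CPM and the highest MIT-Empty library 9.61 CPM, and the log2 fold change was 1.09 ± 0.23 (adjusted p = 0.030, edgeR). In the deposited counts Hdac4 passed the threshold with any single library left out, but counts of a contained library then remain in the containing one. Without the contained libraries its value was 1.09 with an adjusted p of 0.062 (edgeR), and without the containing libraries 0.89 with an adjusted p of 0.41 (edgeR), both from 3 libraries a group.

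The Hdac4 counts were spread over several models. The largest share went to Hdac4-202 (8100 bases), which held 10.6, 10.3, 6.78, 7.39 and 4.48 CPM in MIT-BATF, against 6.94, 2.71, 3.63, 3.27 and 3.26 CPM in MIT-Empty, so that for this model the groups overlapped. Hdac4-205, a coding model of 849 bases that is incomplete at an end, was estimated at 2.86, 3.55 and 3.93 CPM in MIT-BATF replicates 2, 3 and 4 and at 0 in the other 7 libraries. A noncoding model of 650 bases, Hdac4-211, took 9.12% ± 13.6 of Hdac4 counts in MIT-BATF, against 30.0% ± 11 for MIT-Empty (SD, n = 5 each). That share differed at p = 0.048 (exact two-sided permutation test), which did not pass adjustment over the 65 shares tested (adjusted p = 0.60, Benjamini-Hochberg). Leaving out all models tagged as incomplete, Hdac4 was still called, at a log2 fold change of 0.82 (adjusted p = 0.028, edgeR). The other deacetylases did not pass the test. Of the 12 tested, 5 had values above 0 and 7 below, the lowest in Hdac7, another class IIa member, at -0.62 (adjusted p = 0.20, edgeR). The most abundant member, Hdac1, averaged 71.8 ± 15.8 CPM for MIT-BATF and 80.7 ± 13.5 CPM for MIT-Empty (SD, n = 5 each), with an interval of -0.54 to 0.20 for its log2 fold change.

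**Figure D3:**
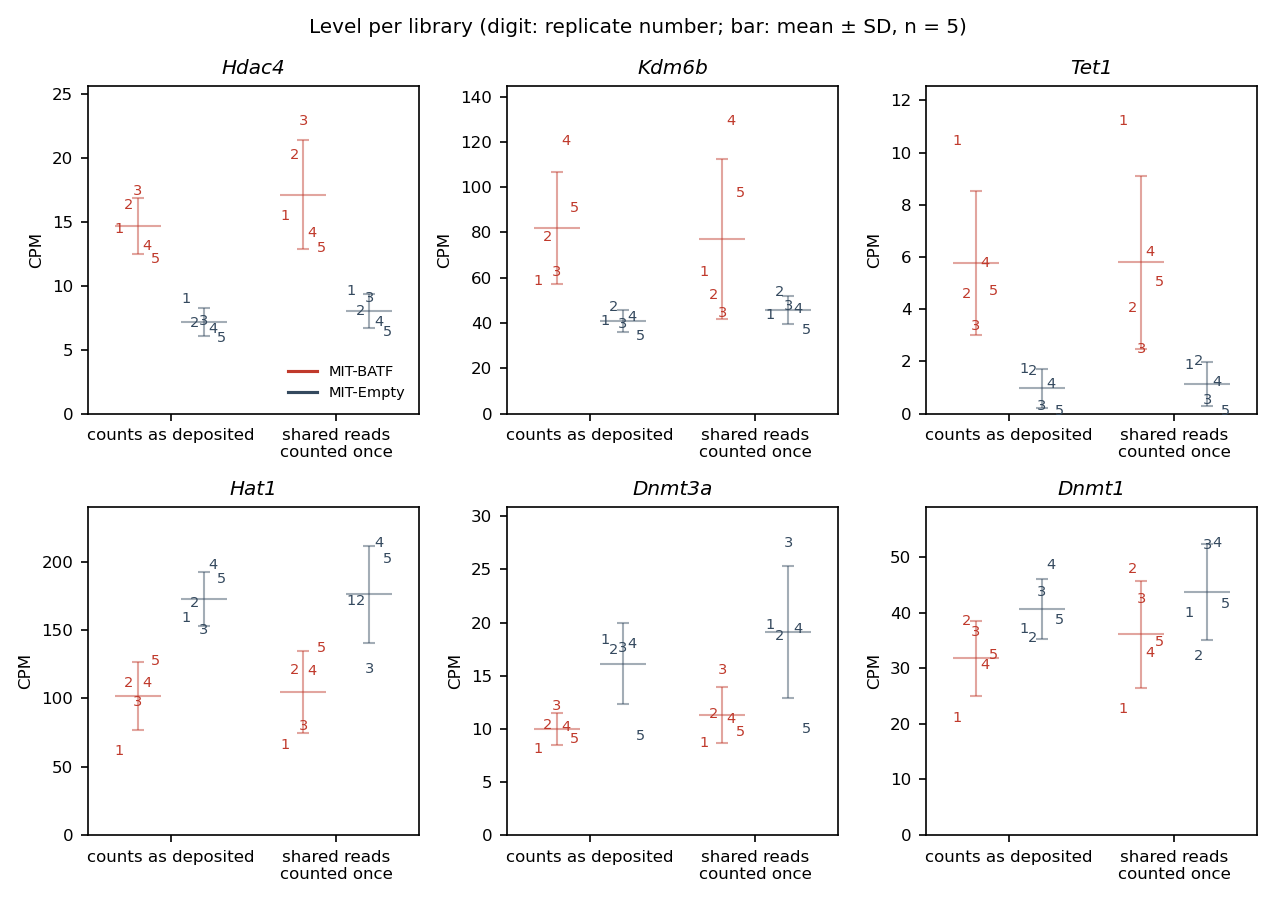
CPM of 6 enzyme genes in each library, shown as replicate numbers, from deposited counts and with shared reads counted once, with the mean and SD of 5 libraries (MIT-BATF left in each pair). Hdac4 and Tet1 do not overlap between groups under either way of counting, while Kdm6b and Hat1 separate the groups in the deposited counts only and Dnmt3a and Dnmt1 overlap in both.

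Among the demethylases, Kdm6b was higher in MIT-BATF in the deposited counts. Kdm6b (ENSMUSG00000018476.7, chromosome 11, 69398508 to 69413675, minus strand), also known as JMJD3, removes methyl groups from the lysine that PRC2 modifies. It was measured at 58.4, 77.9, 62.6, 120 and 90.6 CPM in MIT-BATF replicates 1 to 5 and at 40.7, 47.2, 39.3, 42.8 and 34.1 CPM in MIT-Empty. The groups did not overlap, and MIT-BATF replicate 4 was highest. Its log2 fold change was 1.00 ± 0.19 (SE; adjusted p = 0.0074, edgeR). When shared reads were counted once, MIT-BATF replicates 2 and 3 were at 52.1 and 44.4 CPM, within the MIT-Empty range of 36.7 to 53.9 CPM, while replicates 4 and 5 stood at 129 and 97.4 CPM. The log2 fold change was then 0.76 ± 0.26 with an adjusted p of 0.24 (edgeR), and the call was lost. PRC2 itself showed no called change, with log2 fold changes of -0.19 for Ezh2, 0.022 for Ezh1, -0.13 for Suz12 and 0.018 for Eed in the deposited counts. Eed turned to -0.088 with shared reads counted once. Kdm6a, the X-linked relative of Kdm6b, was at 0.23 (adjusted p = 0.64, edgeR). Kdm2b, which recruits a PRC1 complex to unmethylated CpG islands and is the most abundant demethylase, averaged 86.5 ± 20.3 CPM for MIT-BATF and 87.5 ± 16 CPM for MIT-Empty (SD, n = 5 each).

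Tet1 had the largest fitted difference of the 49 genes, on few counts. Tet1 (ENSMUSG00000047146.17, chromosome 10, 62804570 to 62908996, minus strand) was at 10.4, 4.58, 3.34, 5.77 and 4.69 CPM in MIT-BATF and at 1.71, 1.62, 0.287, 1.13 and 0.083 CPM in MIT-Empty, without overlap. Its fitted log2 fold change was 2.61 ± 0.57 (SE; adjusted p = 0.017, edgeR), and 2.35 ± 0.61 with shared reads counted once (adjusted p = 0.081, edgeR). MIT-BATF replicate 1, the library rich in mitochondrial counts, was highest, and without it the adjusted p with shared reads counted once was 0.18 (edgeR). In MIT-BATF most of these counts were assigned to 1 short model. Tet1-208, of 463 bases and incomplete at its 3′ end, held 113, 97.5, 101, 56.2 and 82.1 estimated counts in MIT-BATF and 14.1, 20.8, 0, 0 and 0 in MIT-Empty. The model Tet1-201, of 13986 bases, held 0 to 35.7 estimated counts per library in MIT-BATF and 0 to 10.1 in MIT-Empty, or 0.40 ± 0.32 CPM for MIT-BATF and 0.39 ± 0.46 CPM for MIT-Empty (SD, n = 5 each). When models tagged as incomplete were left out, Tet1 no longer passed the filter on low counts and was not tested.

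The annotated coding part of Tet1-208 lies in chr10:62879873-62880014 of GRCm38 (GENCODE) on the minus strand and is printed here because the Tet1 difference rests on this model, with the start codon in capitals.
Tet1-208 coding part: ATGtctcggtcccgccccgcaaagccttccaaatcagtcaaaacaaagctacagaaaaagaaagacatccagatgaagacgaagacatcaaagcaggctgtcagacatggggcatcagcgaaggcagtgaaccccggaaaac
These 142 bases belong to Tet1-201 as well, and 112 of the 433 31-base words of Tet1-208 were found in that model. Within the first 119 bases of Tet1-208, 89 of the 433 words (20.6%) also occurred in transcripts of 132 other genes, and no word there was found in another Tet1 model. Which bases the assigned reads covered was not tested, so the values of Tet1 are uncertain where reads could belong to another gene. Tet2, the most abundant TET enzyme, averaged 20.5 ± 7.12 CPM for MIT-BATF and 18.9 ± 1.90 CPM for MIT-Empty (SD, n = 5 each), and its log2 fold change was 0.11 with an interval of -0.32 to 0.55. Tet3 averaged 11.8 ± 2.89 CPM for MIT-BATF and 9.83 ± 1.36 CPM for MIT-Empty (SD, n = 5 each).

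**Figure D4:**
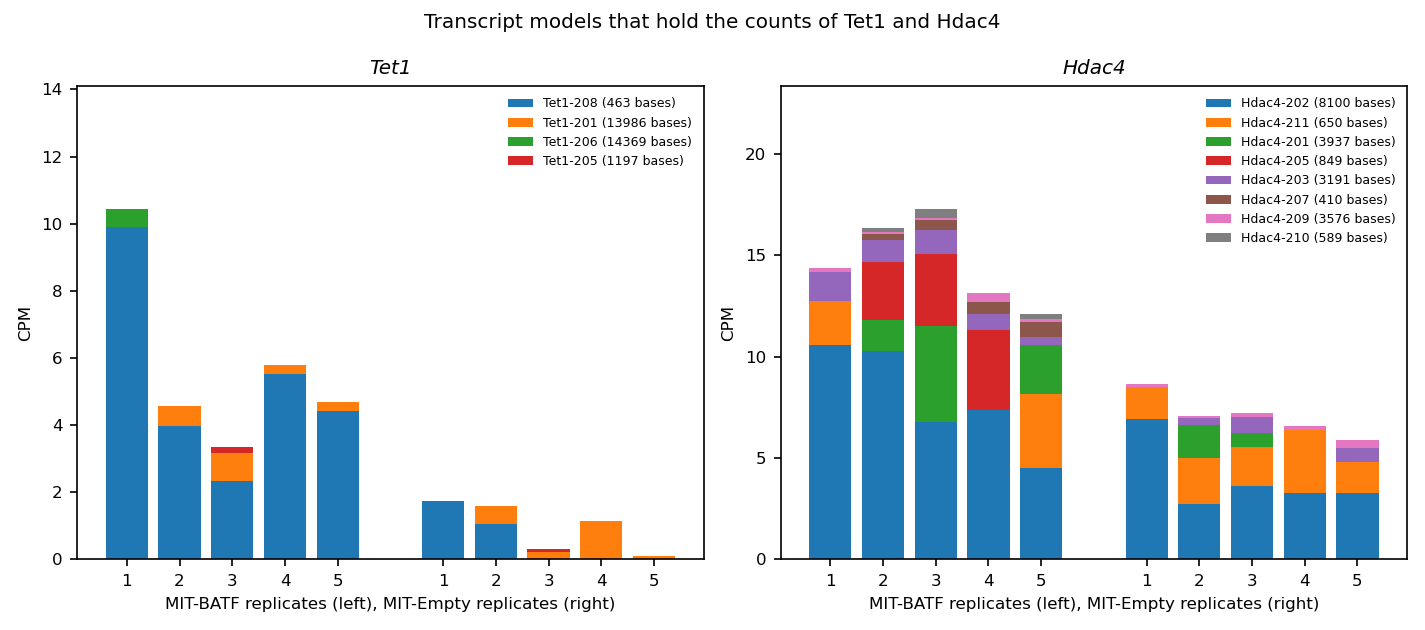
CPM of Tet1 and Hdac4 in each library, stacked by the transcript model to which Salmon assigned the counts (MIT-BATF replicates 1 to 5 left, MIT-Empty replicates 1 to 5 right). Tet1-208, of 463 bases, makes up most of each MIT-BATF bar of Tet1, and Hdac4-205, of 849 bases, appears in 3 MIT-BATF libraries and in no MIT-Empty library.

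Hat1 was the one acetyltransferase that passed the edgeR test, and it was lower in MIT-BATF in the deposited counts. Hat1 (ENSMUSG00000027018.11, chromosome 2, 71388958 to 71441622, plus strand) was at 61.2, 111, 97.2, 111 and 127 CPM in MIT-BATF replicates 1 to 5 and at 159, 170, 150, 198 and 187 CPM in MIT-Empty. The groups were apart, with the mitochondria-rich MIT-BATF replicate 1 lowest. Its log2 fold change was -0.76 ± 0.18 (SE; adjusted p = 0.024, edgeR). When shared reads were counted once, MIT-BATF ran from 65.6 to 137 CPM and MIT-Empty from 122 to 214 CPM, with a log2 fold change of -0.75 ± 0.23 and an adjusted p of 0.17 (edgeR). The fitted difference was thus close to that in the deposited counts, but the call was lost. It was also lost without MIT-BATF replicates 2, 3 or 4 (adjusted p = 0.050, 0.059 and 0.052, edgeR) or MIT-Empty replicates 2, 4 or 5 (adjusted p = 0.060, 0.061 and 0.062, edgeR). Of 18 proliferation genes examined, 7 were called lower like Hat1 and 0 higher, where 2.43% of all genes tested were called lower, and their sum was 831 to 1058 CPM in MIT-BATF, against 1242 to 1359 CPM in MIT-Empty. Examples are the mitotic cyclin gene Ccnb2 (log2 fold change -1.05) and Top2a, which untangles replicated DNA (log2 fold change -0.75). Counting shared reads once, 1 of the 18 was called lower, Ccnb2 at -0.98. The part of cell division or of melanoma RNA in the Hat1 difference was not tested.

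The other 9 acetyltransferases did not pass the test. Kat6a, also known as MOZ, had the highest value at 0.79 ± 0.27 (adjusted p = 0.12, edgeR), and 0.64 with shared reads counted once. The paralogous coactivators Crebbp and Ep300 were at 0.21 and -0.12, and Kat8, which acetylates histone H4 in assembled chromatin, at -0.46 (adjusted p = 0.37, edgeR).

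The 250 bases before a start site in the RefSeq promoter table for GRCm38.p6 are shown for Hdac4 and for Hat1. Hdac4 was called higher under both ways of counting, and Hat1 lower in the deposited counts. Both stretches lie within the gene bounds given above. Whether the models that hold the counts begin at these starts was not tested. Capitals mark CCAAT boxes (CCAAT, or ATTGG on the other strand).
Hdac4 (chr1:92180342-92180591, minus strand): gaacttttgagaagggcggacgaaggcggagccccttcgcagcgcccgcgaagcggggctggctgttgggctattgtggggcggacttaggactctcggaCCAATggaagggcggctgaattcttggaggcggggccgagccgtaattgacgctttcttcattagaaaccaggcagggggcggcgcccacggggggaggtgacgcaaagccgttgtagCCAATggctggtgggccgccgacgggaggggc
Hat1 (chr2:71389010-71389259, plus strand): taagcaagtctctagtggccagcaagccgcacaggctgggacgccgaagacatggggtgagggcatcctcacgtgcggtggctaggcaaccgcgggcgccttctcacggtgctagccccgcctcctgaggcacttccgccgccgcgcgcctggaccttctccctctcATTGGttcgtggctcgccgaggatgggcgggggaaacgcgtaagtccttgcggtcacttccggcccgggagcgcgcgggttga
Windows of 300 bases (250 before and 50 after a start) were found for 45 of the 51 members, 64 windows in all, and were searched on both strands. The CCAAT box was present in 37.5% of member windows and 37.4% of all 32851 windows. The AP-1 motif TGANTCA, the kind bound by BATF with its partners, was found in 5 member windows (7.81%), of Hdac7, Hdac9, Kat2b, Kat8 and Kdm4a, against 7.81% of all windows. The cyclic AMP element TGACGTCA was found in 1 (Suv39h2; 1.56% against 1.79%). The E2F motif TTTNNCGC was found in 6 (9.38% against 5.17%), those of Dnmt1, Ep300, Ezh2, Kat2a, Suv39h1 and Suz12. Neither the Hdac4 nor the Hat1 window held the AP-1, cyclic AMP or E2F letters. These matches describe the windows alone, and distant elements were not searched.

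The DNA methyltransferases did not pass the test, with Dnmt3a closest. Dnmt3a (ENSMUSG00000020661.15, chromosome 12, 3806007 to 3914443, plus strand) was at 8.08, 10.4, 12.2, 10.2 and 9.06 CPM in MIT-BATF, against 18.4, 17.4, 17.6, 17.9 and 9.29 CPM in MIT-Empty. Of the MIT-Empty libraries 4 lay above all MIT-BATF libraries and replicate 5 lay among them. The fitted log2 fold change was -0.69 ± 0.21 (SE; adjusted p = 0.076, edgeR), and -0.76 ± 0.26 with shared reads counted once (adjusted p = 0.23, edgeR). Dnmt3a passed the threshold without MIT-Empty replicate 5 (-0.81, adjusted p = 0.019, edgeR), with DESeq2 (-0.67, adjusted p = 0.031) and with correction for transcript length (-1.55, adjusted p = 0.014, edgeR). Its counts were divided among Dnmt3a-218 (8737 bases), Dnmt3a-201 (9685 bases) and Dnmt3a-203 (5424 bases) in shares that varied widely between libraries. Dnmt3a-201 held 0% to 44.3% of them in MIT-BATF and 0% to 51.6% in MIT-Empty. Dnmt1 averaged 31.8 ± 6.76 CPM for MIT-BATF and 40.7 ± 5.42 CPM for MIT-Empty (SD, n = 5 each). Its log2 fold change was -0.35, with an interval of -0.71 to 0.0042 (adjusted p = 0.28, edgeR). Dnmt3b was low in both groups, at 2.20 ± 0.90 CPM for MIT-BATF and 2.48 ± 1.04 CPM for MIT-Empty (SD, n = 5 each).

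Among the histone methyltransferases none of 13 passed, and the smallest p belonged to Kmt2a. Kmt2a, also known as MLL, methylates histone H3 at active promoters, and was at 34.9, 47.0, 55.8, 36.5 and 33.7 CPM in MIT-BATF, against 32.8, 27.6, 36.4, 29.3 and 32.4 CPM in MIT-Empty. The groups overlapped, with MIT-BATF replicates 2 and 3, the containing libraries, above the rest. With shared reads counted once, these 2 stood at 59.0 and 77.6 CPM and the other MIT-BATF libraries at 36.3 to 39.2 CPM. MIT-Empty then ran from 29.4 to 43.0 CPM, and none of the 13 was called. In the deposited counts the log2 fold change of Kmt2a was 0.39 ± 0.16 (SE; adjusted p = 0.21, edgeR), and limma voom with quality weights called it at 0.49 (adjusted p = 0.038). The heterochromatin enzymes Suv39h1, Suv39h2 and Setdb1 were at -0.15, -0.42 and -0.016, and Dot1l, which methylates histone H3 within its globular part, at -0.16.

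Transcript usage within members was compared as well, because an enzyme can change form without changing its sum. Shares of a gene's counts were taken for 65 transcript models of 29 members with a mean count of at least 100. By exact permutation, two-sided, none passed after Benjamini-Hochberg adjustment and 4 had an unadjusted p under 0.05, where the smallest p the design allows is 0.0079. At that floor 11 of the 65 shares would have to reach it together to pass adjustment, so the adjusted test says little about single shares. The lowest p, 0.024, was shared by Ehmt2-205 and Suv39h2-201. Ehmt2-205, a retained-intron model of the H3 methyltransferase gene Ehmt2, held 38.5% ± 10.7 of Ehmt2 counts for MIT-BATF, against 55.9% ± 7.02 for MIT-Empty (SD, n = 5 each; adjusted p = 0.60). When shared reads were counted once, 0 of 62 shares had an unadjusted p under 0.05 in the same permutation test.

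Beyond the enzymes themselves, 172 partner genes were listed, covering readers and cofactors of DNA methylation, subunits of the PRC, COMPASS, deacetylase, acetyltransferase and heterochromatin complexes, and further enzymes. Of the 169 tested, 4 passed (2.37%, against 4.58% of all genes tested), 1 higher and 3 lower in MIT-BATF. At an unadjusted p under 0.05 there were 30 (17.8%, against 18.1% of all genes tested). With shared reads counted once, 0 of 168 passed, where 1.26% of all genes did. At an unadjusted p under 0.05 there were 13, against 1184 of all 11129 genes tested. DESeq2 called 1 partner gene on these counts, and its share over all genes is not given. None of the 26 PRC2 and PRC1 partners, 10 COMPASS partners, 22 deacetylase complex partners or 12 readers and cofactors of DNA methylation was among the 4 called by edgeR in the deposited counts. Groups could still be apart without a call, and such genes were not counted over the partner lists. The deacetylase complex partner Mier1 is an example, at 66.9 to 103 CPM in MIT-BATF against 53.0 to 59.2 CPM in MIT-Empty. Both heterochromatin genes that passed encode HP1 proteins, which bind methylated histone H3. Cbx3 was at 173, 231, 173, 229 and 253 CPM in MIT-BATF, against 362, 342, 286, 413 and 319 CPM in MIT-Empty, a log2 fold change of -0.70 ± 0.16 (SE; adjusted p = 0.020, edgeR). Cbx5 averaged 28.8 ± 3.45 CPM for MIT-BATF and 43.0 ± 6.24 CPM for MIT-Empty (SD, n = 5 each). Its log2 fold change was -0.57 (adjusted p = 0.034, edgeR). Neither gene had overlapping groups in the deposited counts. With shared reads counted once both overlapped, and Cbx3 was at -0.73 (adjusted p = 0.20, edgeR) and Cbx5 at -0.55 (adjusted p = 0.20, edgeR).

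Kansl1, a scaffold of the complex in which Kat8 works, was higher at 51 ± 13.5 CPM for MIT-BATF, against 30.0 ± 3.69 CPM for MIT-Empty (SD, n = 5 each). Its log2 fold change was 0.76 (adjusted p = 0.024, edgeR), and 0.77 with shared reads counted once (adjusted p = 0.072, edgeR). Sirt5, a mitochondrial sirtuin that removes acyl groups from metabolic enzymes, was at 42.0, 49.2, 55.2, 59.7 and 56.2 CPM in MIT-BATF, against 99.7, 161, 70.9, 357 and 74.6 CPM in MIT-Empty. It was highest in MIT-Empty replicate 4, the library with the most Tyrp1. Replicate 2, next in both genes, contains replicate 4, and with shared reads counted once it was at 78.0 CPM of Sirt5 and 10.4 CPM of Tyrp1, within the range of the other MIT-Empty libraries, against 386 and 814 CPM in replicate 4. The log2 fold change of Sirt5 was -1.54 (adjusted p = 0.028, edgeR), and -1.40 with shared reads counted once (adjusted p = 0.14, edgeR), without overlap under either way of counting. The part of melanoma RNA in it was not tested. Each of the 4 partner calls was lost on leaving out some single library. At the highest, Cbx3 reached an adjusted p of 0.055, Cbx5 0.11, Kansl1 0.074 and Sirt5 0.070 (edgeR). Without MIT-BATF replicate 1 there were 8 partner calls, without MIT-BATF replicate 2, 3 or 4 there were 2, 1 and 1, and without MIT-Empty replicate 1, 2 or 4 there were 2, 0 and 1. Over all genes, the 10 fits with a single library left out called 287 to 772.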

How the data were processed

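The authors made SMART-Seq2 libraries, sequenced paired reads of 37 bp, ran nf-core/rnaseq with the mm10 genome and quantified transcripts with Salmon, whose version is stated in neither paper nor labels. Their own test of MIT-BATF against MIT-Empty used DESeq2, which is an alternative to edgeR here. The deposited tables hold, per transcript, estimated counts (not normalized) and TPM values scaled by the authors to length and library total, beside lengths. Of 112092 transcripts 111787 were matched to GENCODE vM21 (GRCm38). The other 305 held 0.0617% to 0.089% of counts and were left out. Counts were summed per gene and rounded, and TPM summed for levels only. SMART-Seq2 keeps no strand, hence reads of overlapping genes cannot be told apart. Members that overlap an expressed gene are Hdac7 (Slc48a1), Suv39h2 (Dclre1c), Kdm2b (Rnf34), Setdb1 (Cers2), Kat5 (Rnaseh2c), Sirt2 (Nfkbib), Kdm1a (Luzp1) and Kdm5a (Ccdc77).

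Genes were tested with edgeR 4.0.16 in R 4.3.3 (TMM, filterByExpr, quasi-likelihood, group as the only term, threshold 0.05 after Benjamini-Hochberg adjustment). The same fit was also run on simulated counts, drawn as independent libraries without the nesting seen here. The labels describe each library as a biological replicate from a mouse, but p-values and errors over nested libraries are too small if these hold the same reads, which were not examined. Where shared reads were counted once, values that subtraction took below 0 were set to 0. Depth limits genes of few counts, and errors cover the spread between libraries. Alternatives were DESeq2 1.42.0, limma 3.58.1 (voom with quality weights), RLE factors, no filter, a mean count of at least 50, transcript length offsets, a replicate block, each library left out, fits without contained or containing libraries, and fits without mitochondrial genes. Fits that combine shared reads counted once with a block or without the mitochondria-rich library, and a fit on complete transcript models, were chosen after seeing the data. Figures were drawn with matplotlib 3.10.9 in Python 3.11.15.

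The members and lists were chosen with earlier results of these data known. Named were members past the threshold in either main way of counting, Hat1 and Dnmt3a, the most abundant and the lowest-p member of each class, members the filter dropped, and partner and marker genes past the threshold. Other members and the transcript models shown were named after their values were seen. Marker lists covered CD8 and CD4 T cells, melanoma, macrophages, B and NK cells, fibroblasts and endothelium, erythroid cells, proliferation and sex-linked genes.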

Additional observations from a re-analysis of the deposited data

Results flagged for a closer look

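In 98 groups of 5 libraries (49 genes in 2 groups), 5 single values stood apart from the other 4 by Dixon's criterion. Its chance rate of 1 in 20 holds for independent libraries, whereas replicates 4 and 5 lay within replicates 2 and 3. The number that chance gives in nested libraries was not tested. Dnmt3a was at 9.29 CPM in MIT-Empty replicate 5, against 17.4 to 18.4 CPM in the other MIT-Empty libraries. Eed was at 83.9 CPM in MIT-BATF replicate 5, against 53.9 to 61.6 CPM in the rest of that group. Kdm2b was at 59.5 CPM in MIT-Empty replicate 4, against 91.2 to 99.9 CPM in the rest of that group. Hdac10, a deacetylase of polyamines, was at 2.75 CPM in MIT-Empty replicate 4, against 1.32 to 1.47 CPM in the rest. Kdm4a was at 3.69 CPM in MIT-BATF replicate 2, against 1.32 to 1.96 CPM in the rest. Replicates 4 and 5 are the contained libraries, and MIT-Empty replicate 4 also held the most melanoma marker RNA. The part of either was not tested.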

How the results depend on the processing

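Against 540 genes, 4 enzymes and 4 partner genes called in the deposited counts, shared reads counted once gave 140, 1 and 0. With shared reads counted once DESeq2 called 2 enzymes and 1 partner gene, given here without a number over all genes. DESeq2 on deposited counts gave 1253 genes and 12 partner genes, limma voom 1336 genes, 8 enzymes and 13 partner genes, and no filter 903 genes. Without the contained libraries 96 genes, 0 enzymes and 0 partner genes were called, and without the containing libraries 15, 0 and 0. Both leave 3 libraries a group. With shared reads counted once and the mitochondria-rich library left out, 138 genes, 1 enzyme and 0 partner genes were called. Leaving out each library in turn gave 287 (without MIT-Empty replicate 2) to 772 genes, 3 to 5 enzymes, 0 to 8 partner genes and 0 transcript shares. Values near 0 turned sign. Eed was at -0.088 with shared reads counted once, -0.078 with DESeq2 on these counts, -0.083 on them without the mitochondria-rich library, -0.084 with limma voom, -0.066 without the contained libraries and -0.10 with complete models, and ran from -0.10 to 0.072 as libraries were left out. Kdm2b was at 0.023 with no filter and 0.13 without the containing libraries (-0.13 to 0.070 as libraries were left out), and Tet2 at -0.10 with shared reads counted once and the mitochondria-rich library left out (-0.10 to 0.22 as libraries were left out). The causes were not tested.

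Deviations of same-numbered libraries of the 2 groups correlated at -0.06 to 0.28, and those of differently numbered libraries at -0.21 to 0.21. So few values from nested libraries cannot decide whether the replicate numbers pair the groups. A replicate block called 474 genes, 4 enzymes and 4 partner genes. With shared reads counted once, the block gave 174 genes, 1 enzyme and 0 partner genes, with Eed at -0.13. Depth limits members of few counts, and Hdac9 and Hdac11 were not tested.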
